A study of Rattus norvegicus with 9 samples.

Results

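The heat shock proteins and their J-domain and BAG co-chaperones were described in the lungs of rats with and without metabolic syndrome (MetS). Members were all genes whose array annotation gave 1 symbol of the Hsp90, Hspa, Hspb, Hspd, Hspe, Hsph, Dnaja, Dnajb, Dnajc or Bag families, which came to 68 of 14497 named genes. They were 3 HSP90 genes, 11 of the HSP70 and HSP110 family, the 2 mitochondrial chaperonin genes, 7 small heat shock proteins, 4 DNAJA, 12 DNAJB, 23 DNAJC and 6 BAG genes. The inducible HSP70 genes Hspa1a and Hspa1b shared 1 probe with Hspa1l in the annotation, so they were no members and are not analysed here.

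All animals were Wistar rats fed the same chow from weaning, and lungs were taken after 24 weeks and 7 hours of fasting. The 3 MetS animals had a 30% sucrose solution as their only liquid, and the 4 controls had plain water. Sex is labelled for the MetS animals, which were male, but not for the controls. Total RNA was hybridised to Affymetrix arrays with a log2 value per set of oligonucleotides, here named a probe. The 2 arrays of MetS animal 1, and likewise those of control 1, were averaged. The array medians of the 7 animals lay between 7.64 and 7.69, while the SD over all probes ran from 1.76 in control 3 and 1.77 in control 2 to 1.93 in MetS animal 1. Lung markers were present in every animal: Sftpc, which alveolar type 2 cells secrete with surfactant, read between 13.88 and 13.91, and Ager, a marker of alveolar type 1 cells, between 13.16 and 13.28.

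Chaperones hold unfolded proteins and help them reach their native shape. HSP70 proteins do so in cycles of ATP binding and hydrolysis, in which J-domain (DNAJ) proteins bring the client and start hydrolysis, and BAG and HSP110 proteins release the nucleotide. HSP90 takes over partly folded clients such as steroid receptors, small heat shock proteins keep clients from clumping, and the heat shock factor HSF1 and the unfolded protein response raise separate sets of these genes in the cytosol and the endoplasmic reticulum (ER).

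No difference between MetS and control lungs was detected for any of the 68 genes once all probes were taken into account. With limma, 0 members passed an adjusted p of 0.05, as did 0% of all 28826 probes, and the members' adjusted p ran from 0.324 to 0.99. At an unadjusted p under 0.05, 3 members were higher and 0 lower in MetS, beside 3.87% of all genes higher and 9.17% lower, so that the higher count was near the background. Over genes brighter than the 25th percentile of probe means the background was 4.59% higher and 3.17% lower. Leaving out control 1 raised the count of 3 to 7, and leaving out control 4 raised it to 5. It was 1 when either MetS animal 3 or control 3 was dropped. The 3 MetS values lay above all 4 control values for 2 members and below them for 1, beside 5.57% and 6.02% of all genes. The differences were small, between -0.24 for Dnajc5b and 0.30 for Hspa4l and Hspb1 on the log2 scale, and 33 of the 68 were under 0.1 in either direction. Of these ends, Hspa4l stood at 0.13 without control 3 and at -0.06 with the SD of each array's values as a covariate, and Dnajc5b at -0.04 without controls 2 and 3. In a fit with a block for the replicate number both were larger, Hspa4l at 0.38 and Dnajc5b at -0.36. The 95% interval stayed within 1.5-fold in both directions for 60 members and within 2-fold for 66; only those of Hspb6 and Hspb7 reached beyond 2-fold.

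Most members read slightly higher in MetS, 55 of 68 with a median difference of 0.10, and so did 62% of all genes, with a median of 0.04. Among genes above the 25th percentile, where 64 of the members lie, 71.7% read higher. With the array SD as a covariate, 25 members read higher and the median was -0.03. Since the SD was mostly higher in MetS, here and below this fit also takes out part of any group difference. SD and group cannot be told apart in these animals. Without controls 2 and 3 it was 43 members and 0.02, and after another quantile normalization 47 members and 0.08. Leaving out 1 animal moved the median by over 1.5 times in 2 cases, to 0.04 without MetS animal 1 and 0.04 without control 3. Markers of other cells ran the same way in part: the mean log2 value of 3 red cell genes was 10.46 to 10.95 in MetS and 9.96 to 10.65 in controls. That of 5 neutrophil genes was 9.18 to 9.70 and 8.95 to 9.43, and that of 6 smooth muscle genes 8.91 to 9.44 and 8.59 to 9.01. Of the other marker lists, 5 of 5 cilium, 3 of 3 T and B cell and 5 of 9 heart muscle genes read higher. So did 4 of 8 lung tissue genes, but 0 of 4 macrophage and 0 of 6 skeletal muscle genes. In whole lung, more cells of a type and more RNA per cell cannot be told apart, and the part of these cells in the members' values was not tested.

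**Figure D1:**
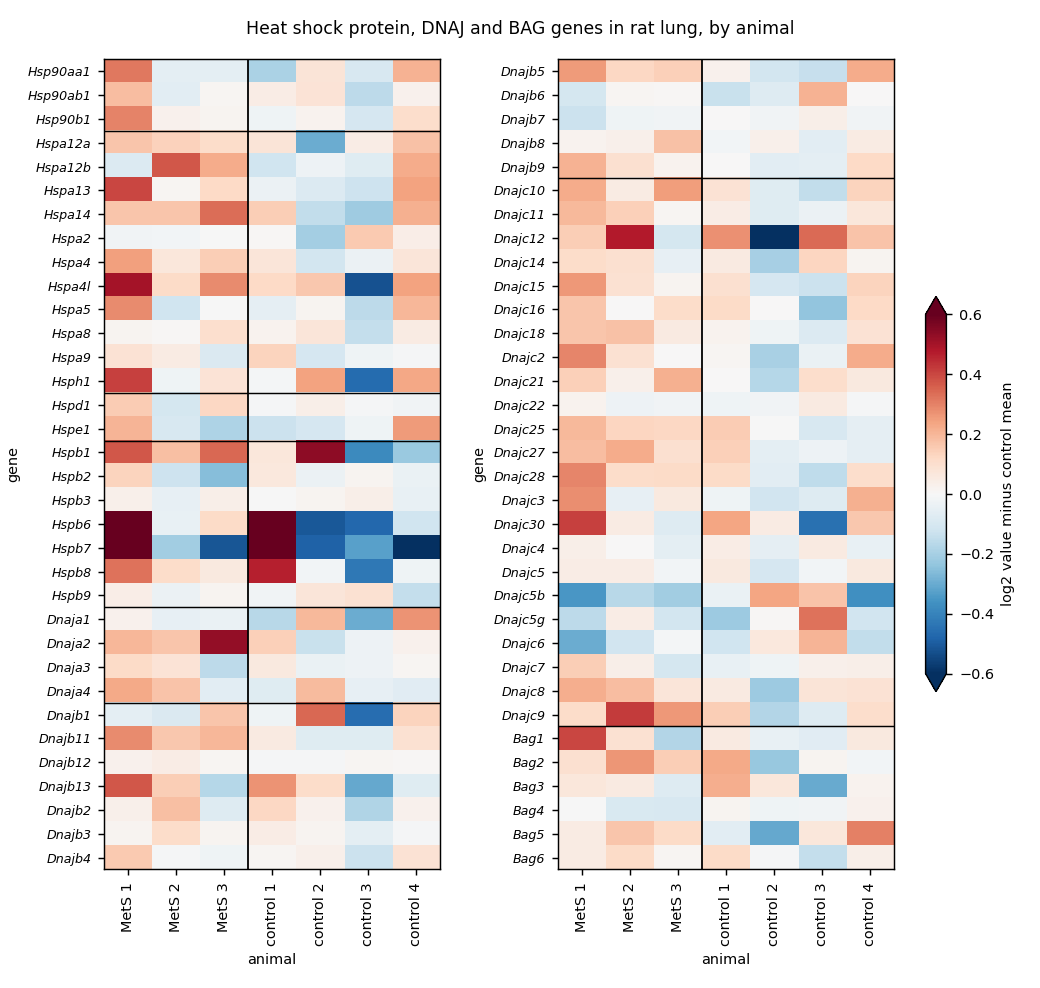
Log2 value of each of the 68 members in each animal minus the mean of the 4 controls, by family (black lines) with MetS animals left of the vertical line; colours saturate at 0.6 in either direction. Among the strong colours are Hspb6 and Hspb7 high in MetS animal 1 and control 1, Hspb1 high in control 2, Hspa4l and Hsph1 low in control 3, and Dnajc12 low in control 2. Control 1 lifts the control mean of Hspb6 and Hspb7, so that the other controls lie below it.

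The 3 members at an unadjusted p under 0.05 were J-domain proteins of different compartments. Dnajb11, an ER co-chaperone of the HSP70 protein BiP, read 9.61, 9.49 and 9.53 in MetS animals 1 to 3 and 9.38, 9.26, 9.26 and 9.42 in controls 1 to 4. Every MetS value stood above every control value, with MetS animal 2 and control 4 closest. The difference was 0.22 with a standard error of 0.07, or 1.16-fold (limma, unadjusted p = 0.0167, adjusted p = 0.324). It was 0.09 with the array SD as a covariate and 0.14 without controls 2 and 3.

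Dnaja2, a cytosolic partner of HSP70, read 9.57, 9.53 and 9.90 in MetS and 9.51, 9.24, 9.34 and 9.39 in controls. The groups did not overlap, but MetS animal 2 and control 1 lay next to each other and MetS animal 3 stood apart. The difference was 0.30 with a standard error of 0.11 (limma, unadjusted p = 0.0294, adjusted p = 0.335). Without MetS animal 3 it was 0.18.

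Dnajc9, a histone chaperone that brings HSP70 to histones, read 8.16, 8.47 and 8.32 in MetS and 8.20, 7.88, 7.98 and 8.16 in controls. Here MetS animal 1 lay within the controls. The difference of 0.26 with a standard error of 0.11 (limma, unadjusted p = 0.0454, adjusted p = 0.359) was 0.12 with the SD covariate and 0.14 without controls 2 and 3. All 3 kept a positive difference in each of the 18 other settings run, Dnaja2 between 0.18 and 0.39, Dnajb11 between 0.09 and 0.25 and Dnajc9 between 0.12 and 0.39. So did Bag2, Dnaja4, Dnajb8, Dnajc10, Hspa12b, Hspa4 and Hspb1 among the other named members. The settings refit the same animals, so that a kept sign is no further support.

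The 1 member whose MetS values lay below all control values was Dnajb7, a dim probe: it read 5.48, 5.59 and 5.59 in MetS and 5.62, 5.59, 5.65 and 5.59 in controls. Its difference of -0.06 had an unadjusted p of 0.335 in limma and was 0.18, with the opposite sign, after another quantile normalization.

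**Figure D2:**
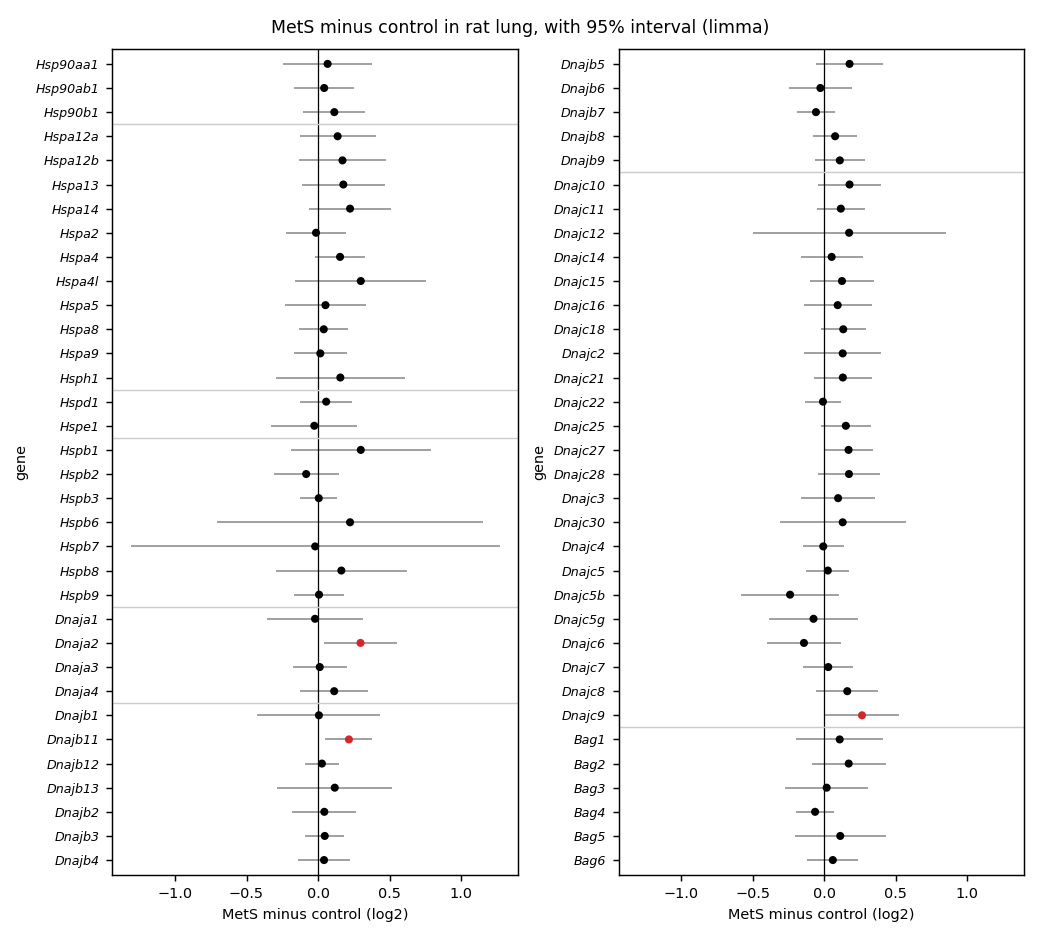
Difference between MetS and control lungs for each member on the log2 scale, points for the limma estimate and bars for its 95% interval (3 and 4 animals), with red points at an unadjusted p under 0.05. Dnaja2, Dnajb11 and Dnajc9 are red, and the widest intervals belong to Hspb6 and Hspb7.

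The HSP90 genes code for the 2 cytosolic forms, Hsp90aa1 and Hsp90ab1, and the ER form Hsp90b1. All 3 were highest in MetS animal 1. Hsp90aa1 read 12.10, 11.72 and 11.72 in MetS and 11.59, 11.86, 11.68 and 11.99 in controls, with a difference of 0.07 (95% interval -0.25 to 0.38). Hsp90ab1 read 12.62, 12.37 and 12.44 against 12.48, 12.52, 12.28 and 12.46, and Hsp90b1 12.38, 12.10 and 12.09 against 12.05, 12.10, 11.97 and 12.18. In each case the other MetS animals lay among the controls.

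Of the HSP70 and HSP110 genes 10 of 11 read higher in MetS, with a median difference of 0.15, and 0 passed the unadjusted threshold. Without MetS animal 1 it was 8 of 11 with a median of 0.07, without controls 2 and 3 the median was 0.04, and with the SD covariate it was 2 of 11 with -0.06. Hspa8, the constitutive cytosolic HSP70, read 13.40, 13.39 and 13.48 in MetS and 13.40, 13.46, 13.24 and 13.43 in controls. The gene had 5 probes, and the differences of the other 4 lay between -0.08 and 0.02; near-identical copies of this gene in the genome make the probes' source uncertain. Hspa9, the mitochondrial HSP70, read 10.22, 10.18 and 10.04 against 10.26, 10.03, 10.10 and 10.12. Hspa4, an HSP110 exchange factor, read 10.79, 10.61 and 10.69 against 10.62, 10.44, 10.51 and 10.62, with a difference of 0.15 (95% interval -0.02 to 0.33). Hspa12b, a distant HSP70 relative found in endothelial cells, read 8.89, 9.35 and 9.20 against 8.86, 8.95, 8.90 and 9.20, and Hspa2, known from male germ cells, differed by -0.01. Hspa14, a ribosome-associated HSP70 relative, read 8.11, 8.11 and 8.28 against 8.09, 7.80, 7.73 and 8.15. Its difference of 0.22 had a 95% interval of -0.06 to 0.51, with controls 2 and 3 below all other animals.

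The mitochondrial chaperonin genes lay close to 0: Hspd1, the HSP60 subunit, differed by 0.06 (95% interval -0.12 to 0.24) and Hspe1, its HSP10 lid, by -0.03 (95% interval -0.33 to 0.28). A second, dimmer Hspd1 probe differed by -0.24.

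The DNAJA genes besides Dnaja2 were spread around 0. Dnaja1, a cytosolic HSP70 partner, read 11.11, 11.04 and 11.05 in MetS and 10.92, 11.28, 10.79 and 11.36 in controls. The MetS animals lay inside the wider control range. Dnaja3, its mitochondrial counterpart, differed by 0.01 and Dnaja4 by 0.11.

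Among the DNAJB genes 10 of 12 read higher, with a median of 0.05. The median was 0.03 without control 3, and with the SD covariate 5 of 12 read higher with a median of -0.03. Dnajb6, which keeps aggregation-prone proteins apart, differed by -0.03, Dnajb4 by 0.04, Dnajb5 by 0.18 and the dim Dnajb8 by 0.08. Dnajb13, a radial spoke protein of motile cilia and sperm tails, read 8.70, 8.47 and 8.15 in MetS and 8.59, 8.43, 8.01 and 8.25 in controls. The mean of 5 other cilium genes was 7.84, 8.03 and 7.66 in MetS and 7.84, 7.76, 7.63 and 7.54 in controls. Both measures put MetS animals 1 and 2 above MetS animal 3.

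The DNAJC genes are the most diverse branch, in which the J-domain is joined to parts for other tasks. Of 23 genes 18 read higher in MetS and 5 lower, with a median of 0.12. The median was 0.05 without MetS animal 1, 0.07 without control 2 and 0.02 without controls 2 and 3, and with the SD covariate 11 of 23 read higher with a median of -0.005. Dnajc27, a Rab-like GTPase, differed by 0.17 (95% interval -0.003 to 0.34, unadjusted p = 0.0529 in limma), and Dnajc15 of mitochondrial import by 0.12. The bright Dnajc10, an ER disulphide reductase, differed by 0.18 (95% interval -0.04 to 0.40) and Dnajc7, which binds both HSP70 and HSP90, by 0.03. Dnajc30, a mitochondrial member, read 7.32 in control 3 and between 7.69 and 8.17 elsewhere. Dnajc5, the cysteine string protein of secretory vesicles, differed by 0.02. The lowest differences were those of the dim genes Dnajc5b, at -0.24, and Dnajc6, the auxilin that uncoats clathrin vesicles, at -0.14; Dnajc5g differed by -0.08. With the SD covariate Dnajc5b stood at 0.13 and Dnajc6 at 0.12, of the opposite sign, and after another quantile normalization they stood at -0.05 and -0.01. Dnajc12, a co-chaperone of the aromatic amino acid hydroxylases, read 7.88 in control 2 and between 8.56 and 9.14 in the other 6 animals. Control 2 stood apart from both groups, and the range of 1.26 was the third widest among the members.

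BAG genes differed by -0.06 for Bag4 to 0.17 for Bag2, with Bag5 at 0.11 and Bag6 at 0.06. Bag3, the partner of Hspb8 in the disposal of damaged proteins, read 8.73, 8.71 and 8.58 in MetS and 8.88, 8.73, 8.35 and 8.68 in controls, a difference of 0.02. Bag1, an exchange factor that links HSP70 to the proteasome, read 10.43 in MetS animal 1 and between 9.86 and 10.12 in the other 6 animals.

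The spread between animals was described by the SD within a group and by the range. Over the 68 members the median SD within a group was 0.13, beside 0.12 over all genes. The 2 arrays of MetS animal 1 differed by a median of 0.04 and those of control 1 by 0.07. The range over the 7 animals had a median of 0.39 and exceeded 1 for 4 members, Hspb7, Hspb6, Dnajc12 and Hspa4l. These ranges followed particular animals, and 1 control stood far from the other 3 for 6 of the 68 members, beside 7.65% of all genes.

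The muscle-associated small heat shock proteins were high in 2 animals, 1 of each group. Hspb7, the cardiovascular small heat shock protein, read 7.66, 6.79 and 6.49 in MetS and 8.49, 6.51, 6.67 and 6.32 in controls. Hspb6, also known as HSP20, read 9.39, 8.74 and 8.90 in MetS and 9.89, 8.28, 8.31 and 8.67 in controls, and Hspb8 read 8.41 in control 1, 8.27 in MetS animal 1 and 7.52 to 8.05 in the other 5 animals. Control 1 was the highest and MetS animal 1 the next for all 3. With Hspb2, a partner of muscle kinases, whose order was the reverse, 4 of 7 small heat shock proteins had these animals on top. This compares with 8 of the 68 members and 10.3% of all genes. The margin of Hspb2 was small, with 8.49 in MetS animal 1, 8.42 in control 1 and 8.10 to 8.37 elsewhere. After another quantile normalization the count was 3 of 7.

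Heart muscle genes, which in rodent lung are known from the wall of the pulmonary veins, had the same 2 animals on top for 7 of 9 measured genes. Their mean log2 value was 8.65 in MetS animal 1 and 9.74 in control 1, and between 6.90 and 7.24 in the other 5 animals. Myh6, a myosin heavy chain of heart muscle, read 9.61 and 11.13 in these 2 animals and between 6.92 and 7.53 elsewhere. Nppa and Myl7 did not follow. Smooth muscle genes had their highest mean, 9.44, in MetS animal 2, where Hspb7 read 6.79, but Des, the desmin gene on that list, read 9.90 in control 1 and 9.43 in MetS animal 1 and 8.27 to 9.24 elsewhere. The skeletal muscle genes Ckm and Acta1, 2 of 6 measured, also had these animals on top, Ckm with 10.55 in control 1, 9.34 in MetS animal 1 and at most 8.38 elsewhere. The share of heart or other muscle in the Hspb6 and Hspb7 values was not tested.

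Without these 2 animals Hspb7 differed by 0.14 in place of -0.02 and Hspb6 by 0.40 in place of 0.22 (limma, unadjusted p = 0.0424, adjusted p = 0.578). With the array SD as a covariate the Hspb6 difference turned to -0.42, and without controls 2 and 3 to -0.27. Hspb3 and Hspb9, which are dim here, stayed within 0.09 and 0.23 over all animals. Cryab, another small heat shock protein of muscle, read 12.40 in MetS animal 1, 12.14 in control 1 and 11.91 to 12.11 elsewhere. It thus had the same animals on top, by a small margin for control 1.

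**Figure D3:**
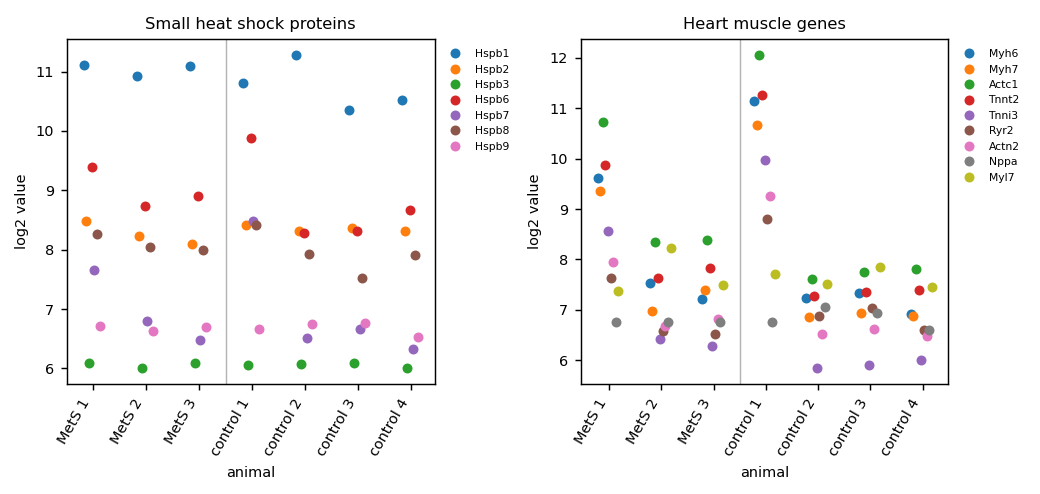
Log2 values of the 7 small heat shock proteins (left) and of 9 heart muscle genes (right) in each animal, 1 point per gene. Hspb6, Hspb7 and Hspb8 and 7 of the heart muscle genes are highest in control 1 and MetS animal 1; levels of different probes cannot be compared.

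Hspb1, the HSP27 gene, had another order of animals. It read 11.11, 10.92 and 11.09 in MetS and 10.81, 11.28, 10.36 and 10.52 in controls. Control 2 was the highest of all animals and controls 3 and 4 the lowest, so that the control SD of 0.40 was much wider than the 0.10 of the MetS animals. The difference of 0.30 (95% interval -0.19 to 0.79) was positive in all 18 other settings, from 0.17 to 0.48.

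Control 3 was low for the genes that HSF1 is known to induce. Of 12 measured members of that textbook list, control 3 had the lowest value of the 7 animals for 9, or 75%, beside 41.2% of all members and 26.5% of all genes. The count was 9 of 12 as well after another quantile normalization and after centring on the median. The list's median against the control mean was -0.30 in control 3 and between -0.04 and 0.19 in the other 6 animals. Control 3 was also lowest for 6 of the 8 measured members of the unfolded protein response, and for 3 of these 8 after another quantile normalization; whether the HSF1 list differs from that list was not tested. Control 3 also had the lowest SD over all probes and the lowest values of all 3 red cell genes; the part of either was not tested. The animal was singled out after its values were seen.

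Hsph1, the HSP110 gene, read 8.68 in control 3 and between 9.12 and 9.55 in the other animals. Hspa4l, a related exchange factor, read 7.82 there and between 8.45 and 8.84 elsewhere, and Dnajb1, the heat-inducible J-domain protein, 8.70 and between 9.08 and 9.51. Hspd1, Hspe1 and Hsp90aa1 were the 3 listed members for which another animal was lowest. The co-chaperones of HSP90 and HSP70 that are no members had the same animal lowest in 12 of 18 genes, or 66.7%. Among them Stip1, which links HSP70 to HSP90, read 9.62 in control 3 and 9.97 to 10.35 elsewhere, and Chordc1 9.77 and 9.92 to 10.44. Hsf1 itself read 8.38 in control 3 and 8.55 to 8.71 elsewhere.

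As MetS against control, this list had 10 of 12 members higher with a median of 0.05. It was 6 of 12 with a median of -0.003 without control 3, and the median was 0.02 without MetS animal 1 and -0.09 with the SD covariate. Of the 12 members 0 had an unadjusted p under 0.05 in limma.

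The letters that HSF1 binds were looked for in the promoters, because these members were low together in control 3. A run of 3 alternating units on either strand, read as GAA, any 2 bases, TTC, any 2 bases and GAA, was found within the 250 bases before the start site in 4 of 55 members with a promoter in RefSeq (assembly GRCr8), namely Hspa8, Hspd1, Hspe1 and Hsph1, or 7.27%, and in 0.663% of all 33469 promoters. The promoters of Hsph1, Hspa8 and Hspe1 are shown, since they hold the element and their genes fall on both sides of the pattern; capitals mark the matches. Hsph1 lies at chr12:10427118-10427367 (plus strand), Hspa8, with 2 matches, at chr8:50080264-50080513 (plus strand) and Hspe1 at chr9:64084077-64084326 (plus strand). Hspd1 runs the other way from the same stretch and holds the same letters, where 2 matches overlap.
Hsph1: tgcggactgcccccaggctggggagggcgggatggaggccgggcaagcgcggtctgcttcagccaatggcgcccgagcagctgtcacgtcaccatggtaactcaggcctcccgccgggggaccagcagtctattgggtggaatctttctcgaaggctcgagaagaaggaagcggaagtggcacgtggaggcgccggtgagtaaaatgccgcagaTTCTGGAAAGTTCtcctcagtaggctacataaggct
Hspa8: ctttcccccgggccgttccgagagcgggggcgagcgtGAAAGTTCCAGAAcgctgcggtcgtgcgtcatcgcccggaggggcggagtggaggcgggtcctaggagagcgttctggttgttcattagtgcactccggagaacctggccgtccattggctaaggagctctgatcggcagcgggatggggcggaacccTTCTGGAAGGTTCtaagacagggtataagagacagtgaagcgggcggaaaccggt
Hspe1: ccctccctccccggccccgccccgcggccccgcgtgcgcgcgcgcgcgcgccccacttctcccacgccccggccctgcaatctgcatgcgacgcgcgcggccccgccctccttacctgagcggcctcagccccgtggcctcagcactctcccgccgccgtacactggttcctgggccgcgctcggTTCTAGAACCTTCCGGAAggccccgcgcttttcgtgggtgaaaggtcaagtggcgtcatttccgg
Hsph1 and Hspa8 were lowest in control 3, whereas Hspe1, at 9.89 there, lay between the 9.78, 9.81 and 10.17 of the other controls. Dnajb1, Hspb1 and Hspa4l were low in control 3 with no such run in this window. A match is a description of the letters and not of binding.

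**Figure D4:**
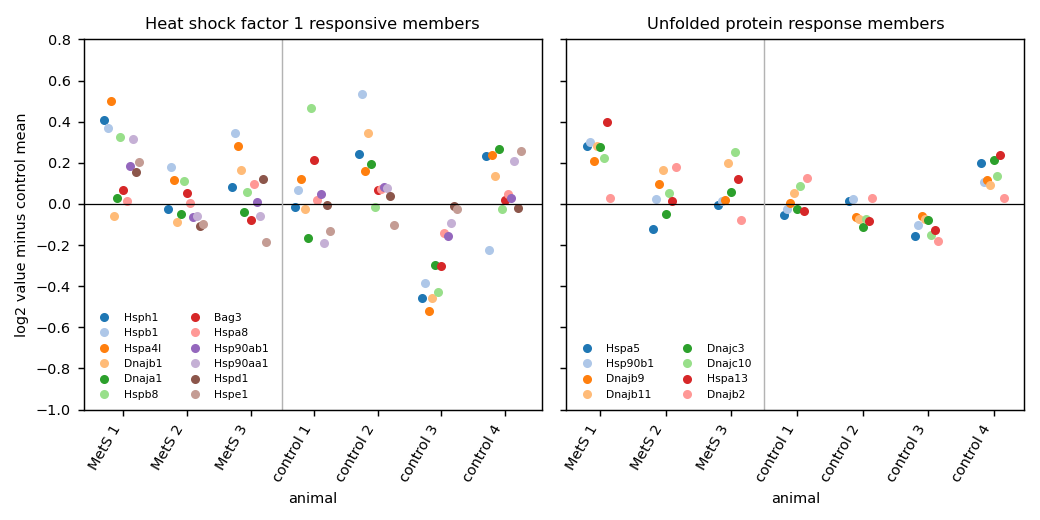
Log2 value minus the mean of the 4 controls for 12 members induced by HSF1 (left) and 8 members of the unfolded protein response (right), 1 point per gene and animal. On the left most points of control 3 lie below 0; on the right the points of MetS animal 1 lie above 0.

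Members of the unfolded protein response, which raises chaperones of the ER, were highest in MetS animal 1. That held for 6 of 8 measured members, or 75%, as deposited and after both other scalings, beside 41.2% of all members and 22.0% of all genes as deposited. After centring on the median MetS animal 1 was highest for 51.5% of all members and 26.2% of all genes, and after another quantile normalization for 38.2% and 22.9%. Among genes above the 25th percentile it was highest for 26.0% as deposited, 30.7% after centring and 23.0% after another quantile normalization. This animal, too, was singled out after its values were seen. MetS animal 1 also had the highest SD over all probes, and the part of this was not tested. Hspa5, the BiP protein that is the HSP70 of the ER, read 12.16, 11.76 and 11.88 in MetS and 11.83, 11.90, 11.73 and 12.08 in controls. MetS animals 2 and 3 lay within the controls, and the difference was 0.05 (95% interval -0.23 to 0.34). Hspa13 read 9.37, 8.98 and 9.08 against 8.93, 8.88, 8.84 and 9.21. Dnajc3, an ER co-chaperone that also restrains the kinase PERK, read 9.89, 9.57 and 9.67 against 9.59, 9.50, 9.54 and 9.83, and Dnajb9 10.02, 9.91 and 9.83 against 9.81, 9.75, 9.75 and 9.93. Control 4 was the highest control for each of these 4 genes.

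Of 16 other ER folding genes 12 were highest in MetS animal 1, among them the disulphide isomerase Pdia4 at 10.61 (10.07 to 10.41 elsewhere) and Sdf2l1, a partner of BiP complexes, at 8.56 (7.92 to 8.31 elsewhere). In the same animal the macrophage genes Cd68, at 11.09, and Mrc1, at 11.85, were at their highest too. Cd163, at 7.63, lay next to the highest value, 7.65 in control 2, and was highest in MetS animal 1 after both other scalings, whereas Marco was not in any. The part of macrophages was not tested. As MetS against control, 8 of 8 response members read higher with a median of 0.11, and 1 of them, Dnajb11, had an unadjusted p under 0.05. Without MetS animal 1 it was 7 of 8 with a median of 0.05, and with the SD covariate 2 of 8 with a median of -0.05. Of the 16 other ER folding genes 13 read higher with a median of 0.09, and 0 had an unadjusted p under 0.05. Without MetS animal 1 it was 11 of 16 with a median of 0.03, and with the SD covariate 5 of 16 with -0.03.

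The ER stress response element, CCAAT and CCACG with any 9 bases between them on either strand, was found in the same window in 3 of 55 members, Hspa5, Hsp90b1 and Dnajc3, or 5.45%, and in 0.0657% of all promoters. All 3 are shown, as all 3 genes were highest in MetS animal 1, again with the matches in capitals. That animal was highest for 41.2% of all members, and all 3 genes were on the textbook response list beforehand. Here too a match describes the letters and not binding. Their positions in GRCr8 are chr3:38452766-38453015 (plus strand) for Hspa5, chr7:23012294-23012543 (minus strand) for Hsp90b1, which holds 2 matches, and chr15:102432417-102432666 (plus strand) for Dnajc3.
Hspa5: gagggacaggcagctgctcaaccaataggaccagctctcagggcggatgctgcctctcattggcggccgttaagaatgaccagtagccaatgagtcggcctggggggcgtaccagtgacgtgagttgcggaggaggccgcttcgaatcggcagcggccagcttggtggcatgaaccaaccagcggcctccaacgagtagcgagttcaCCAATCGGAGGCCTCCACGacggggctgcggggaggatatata
Hsp90b1: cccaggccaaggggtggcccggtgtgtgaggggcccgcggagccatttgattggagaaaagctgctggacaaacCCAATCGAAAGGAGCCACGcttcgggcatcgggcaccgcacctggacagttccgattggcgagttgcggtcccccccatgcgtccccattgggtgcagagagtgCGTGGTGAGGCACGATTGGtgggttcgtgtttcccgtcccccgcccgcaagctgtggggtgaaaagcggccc
Dnajc3: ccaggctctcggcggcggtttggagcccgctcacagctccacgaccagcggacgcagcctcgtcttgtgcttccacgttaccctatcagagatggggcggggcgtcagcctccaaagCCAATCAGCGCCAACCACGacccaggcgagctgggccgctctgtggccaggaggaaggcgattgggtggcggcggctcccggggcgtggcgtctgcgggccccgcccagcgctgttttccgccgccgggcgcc
Dnajb9, Dnajb11 and Hspa13 were highest in the same animal, and no match was found for them. Members without a promoter could not be searched.

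Of the pathway genes that are no members, 2 of 18 co-chaperones were higher at an unadjusted p under 0.05, and neither gene's groups overlapped, beside 3.87% of all genes at that threshold and 5.57% with higher MetS values that did not overlap. Fkbp5, a glucocorticoid-induced co-chaperone of HSP90 in steroid receptor complexes, read 9.85, 9.10 and 9.18 in MetS and 8.59, 8.25, 8.45 and 8.76 in controls. MetS animal 1 was the highest. The difference was 0.86 with a standard error of 0.20, or 1.82-fold (limma, unadjusted p = 0.00338, adjusted p = 0.324). Its near relative Fkbp4 read 9.28, 9.08 and 8.97 in MetS and 9.09, 8.99, 8.64 and 9.37 in controls. Ptges3, the p23 co-chaperone of HSP90, read 9.77, 9.52 and 9.59 against 9.45, 9.31, 9.27 and 9.50. Its difference was 0.24 (limma, unadjusted p = 0.0289, adjusted p = 0.335). Over the 18 genes, 17 read higher with a median of 0.11; without control 3 it was 12 with 0.02, and without controls 2 and 3 it was 8 with -0.003. With the SD covariate it was 6 with -0.05. Of the 8 genes of the TRiC chaperonin, the folding machine of actin and tubulin, 6 read higher with a median of 0.06, and 1 of them, Cct6a, had an unadjusted p under 0.05, with a difference of 0.22 (limma, adjusted p = 0.361). For TRiC the median was 0.02 without MetS animal 1 and 0.02, with 4 of 8 higher, without control 3. It was 0.004 with 4 of 8 after another quantile normalization, -0.03 with 2 of 8 without controls 2 and 3, and -0.10 with 1 of 8 with the SD covariate. The heat shock factor genes Hsf1, Hsf2 and Hsf4 differed by 0.11, 0.13 and 0.005, and Hsbp1, a heat shock factor binding protein, by 0.25. The 4 mitochondrial folding genes differed by 0.05 to 0.20, and 0 of either list had an unadjusted p under 0.05 in limma. With the SD covariate 1 of the 4 genes of the first list and 0 of the 4 mitochondrial genes read higher.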

How the data were processed

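Values were used on the log2 scale as deposited by the authors, for 28826 probes on each array. Per the submitters' processing notes, R 2.11.0, RMA and limma were used, in roles that the notes leave out. No build was needed for the expression values. Per the labels' protocols, Trizol RNA with an integrity number of at least 6 was kept and 50 ng was labelled. The labels do not say where the paths of 2 arrays of the same animal parted.

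Arrays of the same animal were averaged, so that n counts animals. MetS minus control was fitted with lmFit and eBayes (limma 3.58.1, R 4.3.3) on all probes, with Benjamini-Hochberg adjustment over all of them. The script was tested on simulated data with shifts larger than the difference of any member. That test therefore says nothing about how well differences as small as the members' would be found. Tables were made with pandas 2.3.3, numpy 2.4.6 and scipy 1.17.1 in Python 3.11.15, figures with matplotlib 3.10.9. A gene was read by its probe with the highest mean among probes with 1 symbol. All 68 members matched a current RefSeq gene, and 55 had a promoter there. Values of different probes are not compared. The number of animals limits the precision.

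The members, lists and alternatives were chosen with earlier results of these data known. Named with values were members at an unadjusted p under 0.05 or with groups that do not overlap, the 3 brightest and 2 dimmest of each family, the 8 with the widest range, and well-known members whatever their values, 48 of 68 in all. Genes named besides these were chosen after their values were seen. Alternatives were other uses of the technical arrays, scalings, the SD as a covariate, a filter on dim probes, other moderation, a block for the replicate number, fits without some animals, and the mean of a gene's probes.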

Additional observations from a re-analysis of the deposited data

Results flagged for a closer look

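In 6 of the 68 members 1 control stood far from the other 3, by a gap to its nearest neighbour above 0.829 of the range of the 4 controls. Chance gives about 1 in 20, and 7.65% of all genes had such a control. Control 2 stood apart for Dnaja4 (gap 0.911 of the range), Dnajc8 (0.893) and Dnajc12 (0.852). Control 1 stood apart for Dnajc27 (0.869) and for Hspb7 (0.839), the gene that was high together with heart muscle genes. Control 3 stood apart for Hspa4l (0.843), which is on the HSF1 list. Dnaja4 was also the member whose 2 arrays of control 1 differed most, by 0.37 on the log2 scale.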

How the results depend on the processing

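The count of members past the adjusted threshold was 0 as reported and in each of the 18 other settings. The count of members higher at an unadjusted p under 0.05, 3 as reported, was 6 after another quantile normalization, 0 with the SD of each animal in the fit, 1 without controls 2 and 3, and 5 without MetS animal 1 and control 1, a setting added after seeing the data; leaving out 1 animal gave 1 to 7. The count of lower members, 0 as reported, was 0 to 1 when 1 animal was left out. The median difference, 0.10 as reported, was -0.029 with the SD in the fit and 0.024 without controls 2 and 3; the cause was not tested. With the replicate block 5 members were higher and 2, Dnajc5b and Dnajc6, were lower. There 2017 probes of the table but 0 members passed the adjusted threshold, with Dnajc5b at an adjusted p of 0.0542 (limma). Control 4, which has no partner, adds nothing to that fit. Same-numbered animals had deviations from their group means that correlated at 0.271, -0.118 and 0.339 over all probes. Differently numbered animals had correlations between -0.421 and 0.385. With so few animals, these values cannot tell whether the numbers pair the animals. Among the 48 named members the sign changed for 28 with the SD in the fit, 15 without controls 2 and 3 and 13 after another quantile normalization. The SD ran largely with the group, so that the fit with it cannot separate the SD from MetS. Arrays give no depth, and dim probes such as Dnajb7 lie near the background.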
